A study of Mus musculus with 8 samples.

Results

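The 10 genes described here encode the enzymes that form and rearrange disulfide bonds in the endoplasmic reticulum (ER), and all of them were found by symbol among the 16538 genes of an RNA-seq table of sorted mouse DN3 thymocytes. They are the protein disulfide isomerases P4hb, Pdia3, Pdia4, Pdia5 and Pdia6, the thioredoxin-domain proteins Txndc5 and Txndc11, the ER stress-inducible protein Creld2, and the oxidases Ero1l and Ero1lb, which are also named Ero1a and Ero1b. The study compared 4 libraries from control mice, which carry the floxed Sel1l alleles without Cre (Sel1l-f/f), with 4 libraries from Sel1l CKO mice, which carry the same floxed alleles together with hCD2cre (Sel1l-f/f hCD2cre+). Mice were 6 weeks old and of the C57BL/6 strain. Cells were sorted as lineage-negative CD4- CD8- CD44- CD25+ thymocytes, the DN3 stage, at which cells pass β-selection once they have assembled a T cell receptor β chain. The Cre is driven by human CD2 regulatory elements, which are active from early thymic progenitors on, so the deletion precedes the DN3 stage. Because the control mice carry no Cre, an effect of the Cre and an effect of the deletion cannot be told apart.

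SEL1L is the adaptor of the HRD1 ubiquitin ligase, the core of an ER-associated degradation pathway that clears misfolded proteins from the ER. Proteins entering the ER form disulfide bonds by passing electrons to a protein disulfide isomerase, whose active-site cysteines are then reoxidized by an Ero1 oxidase that hands the electrons to molecular oxygen. The isomerases also break and reshuffle wrong disulfides, and some of them open disulfides of proteins that are to be exported for degradation. Genes of this machinery are known targets of the unfolded protein response, in which XBP1 and ATF6 act on ER stress response elements and ATF4 and CHOP act on amino acid response elements.

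The libraries held between 32900253 and 50401359 reads counted on genes, as recovered from the steps of the values. The deposited unit was RPKM, reads per kilobase scaled to the depth of each library, and the kilobases were those of the whole gene including its introns, so RPKM was compared between genotypes for 1 gene but not between genes. Across control replicates 1 to 4, Sel1l, the deleted gene, measured 1.83, 1.66, 1.61 and 1.57 RPKM, and across replicates 1 to 4 of Sel1l CKO it measured 0.917, 0.876, 1.32 and 1.23 RPKM. The Sel1l CKO mean was 65.1% of the control mean (log2 fold change -0.59, SE 0.13, limma adjusted p = 0.033), and the adjusted p rose above 0.05 when any control library or Sel1l CKO replicate 1 or 2 was left out (0.065 to 0.098). All 9 DN3 markers listed reached 1 RPKM, and their summed level was 499 to 541 RPKM in control and 455 to 480 RPKM in Sel1l CKO libraries. Thy1 made up most of this sum (274 to 310 and 270 to 287 RPKM). Cd3e (36.3 to 41.95 and 28.5 to 34.2 RPKM) and Notch3 (17.5 to 20.7 and 7.61 to 17.2 RPKM) were lower in every Sel1l CKO library. That held for 6.34% of the 10786 genes with a mean of at least 0.05 RPKM. The other markers overlapped between genotypes. In the limma test on those 10786 genes, 0 of the 9 markers rose and 0 fell at an adjusted p under 0.05. Plasma cells are rich in these enzymes, and the 5 plasma cell markers summed to 8.29 to 12.5 RPKM in control and 10.03 to 29.4 RPKM in Sel1l CKO libraries. Nearly all of that was Mzb1, an ER cochaperone of B lineage cells, while Jchain stayed at or under 0.109, Sdc1 at or under 0.0566, Tnfrsf17 at or under 0.0388 and Prdm1 at or under 0.00215 RPKM. The 4 B cell markers summed to 8.22 to 10.2 RPKM in control and 5.31 to 8.22 RPKM in Sel1l CKO libraries, and the 4 myeloid markers to 3.50 to 6.16 and 1.91 to 3.97 RPKM. The 3 erythroid markers in the table summed to at most 0.723 (control) and 1.88 RPKM (Sel1l CKO). Thymic epithelial markers summed to at most 0.159 RPKM, and the fibroblast and the double positive or mature thymocyte markers spanned 1.02 to 1.51 and 1.69 to 4.399 RPKM over both genotypes. In these bulk samples, fewer cells of a type and less RNA per cell cannot be told apart.

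Deletion of Sel1l was accompanied by higher RNA of 9 of the 10 genes, from 2.01-fold for P4hb to 4.13-fold for Creld2, and the remaining gene, Ero1l, was at 1.07 times its control level. The comparison asked which genes of the disulfide machinery differ in DN3 thymocytes when SEL1L-dependent degradation is impaired. Two-sided limma tests were run on all genes with a mean of at least 0.05 RPKM, on log2(RPKM + 0.01), where all 10 genes pass the limit from their control libraries alone. There 9 of the 10 rose and 0 fell at an adjusted p under 0.05, beside 2.78% that rose and 0.834% that fell of the 10786 genes tested. Their median log2 fold change was 1.56, against -0.01 over all genes tested. The 10 genes and the lists below were chosen with earlier results of these data known. Contrasts of their counts with all genes are therefore descriptions. In these 9 genes every Sel1l CKO library was above every control library, which held for 7.23% of the genes tested, and the exact two-sided permutation test over the 70 assignments of libraries gave 0.0286 for each, the smallest p that 4 against 4 libraries can give. For the 7 genes with a mean of at least 1 RPKM, the values below come from a test on log2(RPKM + 0.1) over 6512 genes, and for Pdia5, Ero1lb and Ero1l they come from the test with the lower limit. Of the 6512 genes 4.27% rose and 1.01% fell, and in 9.15% every Sel1l CKO library was above every control library. All 7 did both, but Txndc11 entered this test only through its Sel1l CKO libraries, so the count of 9 of 10 at the lower limit is the one to read. The labels do not say which mouse each library came from, and the study's methods describe n as independent biological replicates.

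**Figure D1:**
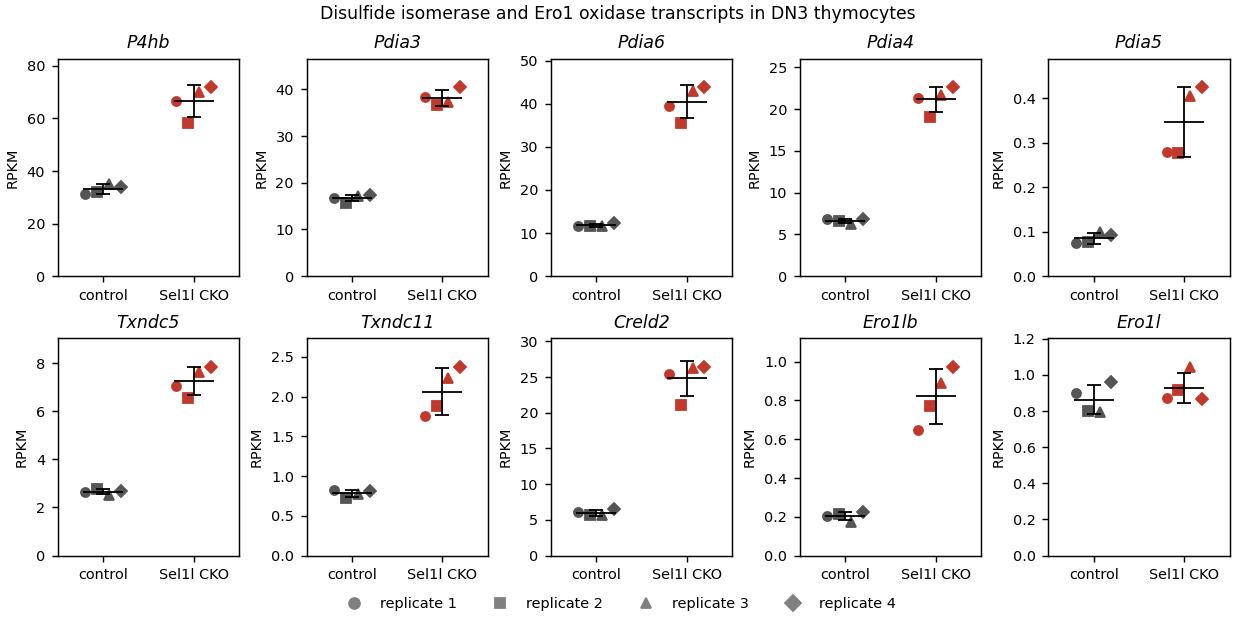
RPKM (linear axes from 0, scaled for each gene) of the 10 genes in the 4 control (grey) and the 4 Sel1l CKO (red) libraries, 1 point per library with its shape giving the replicate number, and lines at the group mean with SD. In 9 genes the Sel1l CKO points lie above all control points, and in Ero1l the points of both genotypes overlap.

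P4hb, chr11:120560298-120573253 on the minus strand (GENCODE M21, GRCm38), encodes PDI itself, the abundant general isomerase that is also the β subunit of collagen prolyl 4-hydroxylase. It was at 31.4, 32.1, 35.2 and 34.0 RPKM in the control libraries and at 66.5, 58.2, 70.1 and 71.8 RPKM in the Sel1l CKO libraries. The lowest Sel1l CKO library, replicate 2, was above the highest control library. The means were 33.2 ± 1.74 and 66.7 ± 6.05 RPKM (SD, n = 4), a log2 fold change of 1.001 (SE 0.08, 95% interval 0.82 to 1.18, limma adjusted p = 8.7e-05). With 16058 to 38025 reads in a library, P4hb had the smallest change of the 9 genes that rose, except with a pseudocount of 1, which compresses the low genes.

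Pdia3, chr2:121413775-121438687 on the plus strand, encodes ERp57, the isomerase that works with calnexin and calreticulin on glycoproteins and sits in the MHC class I peptide-loading complex. Its values were 16.7, 15.8, 17.2 and 17.3 RPKM in control and 38.4, 36.6, 37.2 and 40.4 RPKM in Sel1l CKO libraries. Both groups were tight and far apart, with means of 16.8 ± 0.719 and 38.2 ± 1.68 RPKM (SD, n = 4) and a log2 fold change of 1.18 (SE 0.06, interval 1.04 to 1.32, limma adjusted p = 5.6e-06). Its gene overlaps Catsper2 on the other strand, which was at 0.0591 to 0.225 RPKM.

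Pdia4, chr6:47796141-47813430 on the minus strand, encodes ERp72, an isomerase with an additional thioredoxin domain. It was at 6.79, 6.54, 6.21 and 6.84 RPKM in control and at 21.3, 19.1, 21.6 and 22.6 RPKM in Sel1l CKO libraries. The 3.21-fold difference (means 6.60 ± 0.286 and 21.2 ± 1.49 RPKM, SD, n = 4) was a log2 fold change of 1.66 (SE 0.07, interval 1.51 to 1.82, limma adjusted p = 2.7e-06).

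Pdia6, chr12:17266545-17284770 on the plus strand, encodes P5, an isomerase that binds the chaperone BiP. The control libraries lay at 11.6, 11.6, 11.6 and 12.3 RPKM and the Sel1l CKO libraries at 39.6, 35.5, 43.0 and 43.8 RPKM. The means, 11.8 ± 0.369 and 40.5 ± 3.77 RPKM (SD, n = 4), differed by 1.77 on the log2 scale (SE 0.08, interval 1.59 to 1.94, limma adjusted p = 2.7e-06), and its interval overlapped that of Pdia4. Pdia6 overlaps Atp6v1c2 on the other strand, which did not exceed 0.000594 RPKM.

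Pdia5, chr16:35397312-35490873 on the minus strand, encodes PDIr, a less abundant isomerase. Its span is 33.76 times its exon length, so its RPKM was low for the reads it held: 280 to 343 reads in control and 991 to 1307 reads in Sel1l CKO libraries. It was at 0.0736, 0.0767, 0.0990 and 0.0929 RPKM in control and at 0.280, 0.276, 0.406 and 0.425 RPKM in Sel1l CKO libraries. Replicates 3 and 4 of Sel1l CKO stood above replicates 1 and 2. The means were 0.0856 ± 0.0123 and 0.347 ± 0.0797 RPKM (SD, n = 4), a log2 fold change of 1.88 (SE 0.19, interval 1.45 to 2.31, limma adjusted p = 0.00075).

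Txndc5, chr13:38500079-38528824 on the minus strand, encodes ERp46, an isomerase with several thioredoxin domains. Its values were 2.63, 2.76, 2.52 and 2.69 RPKM in control and 7.04, 6.56, 7.65 and 7.86 RPKM in Sel1l CKO libraries. The means of 2.65 ± 0.101 and 7.28 ± 0.589 RPKM (SD, n = 4) gave a log2 fold change of 1.42 (SE 0.07, interval 1.26 to 1.59, limma adjusted p = 5.6e-06). Txndc11, chr16:11074911-11134650 on the minus strand, encodes a membrane-bound thioredoxin-domain protein that binds the EDEM mannosidases of ER-associated degradation. It was at 0.820, 0.723, 0.777 and 0.815 RPKM in control and at 1.75, 1.88, 2.24 and 2.38 RPKM in Sel1l CKO libraries. The means were 0.784 ± 0.0450 and 2.06 ± 0.293 RPKM (SD, n = 4), a log2 fold change of 1.28 (SE 0.11, interval 1.04 to 1.52, limma adjusted p = 0.00011). Txndc11 passed the limit of 1 RPKM only through the Sel1l CKO libraries, and on log2(RPKM + 0.01), where it passes from control alone, its log2 fold change was 1.37 with a limma adjusted p of 0.0002. Snn, which overlaps Txndc11 on the other strand, was at 3.27 to 4.75 RPKM in control and 2.74 to 3.44 RPKM in Sel1l CKO libraries. Whether strand was used in counting is not given in the sources used here, so a share of Snn reads in Txndc11 was not tested.

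Creld2, chr15:88819646-88826683 on the plus strand, encodes an ER-resident protein whose RNA is known to rise under ER stress. It was at 6.16, 5.62, 5.73 and 6.52 RPKM in control and at 25.4, 21.1, 26.2 and 26.4 RPKM in Sel1l CKO libraries. The means were 6.01 ± 0.414 and 24.8 ± 2.49 RPKM (SD, n = 4), a log2 fold change of 2.02 (SE 0.09, interval 1.82 to 2.22, limma adjusted p = 2.7e-06). This interval overlapped those of Pdia5 and Ero1lb, which were fitted with another pseudocount, and which of the 3 changed most depended on the setting. Ranked by log2 fold change among the 6512 genes tested, Creld2 was 16th from the top, Pdia6 19th, Pdia4 22nd, Txndc5 29th, Txndc11 40th, Pdia3 52nd and P4hb 69th.

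The Ero1 oxidases differed from each other. Ero1lb, chr13:12565874-12611396 on the plus strand, encodes ERO1β, known from secretory tissues such as pancreas. It was at 0.203, 0.213, 0.173 and 0.227 RPKM in control and at 0.649, 0.773, 0.890 and 0.974 RPKM in Sel1l CKO libraries, from 266 to 445 and 1073 to 1701 reads. The groups were separated by a wide gap (means 0.204 ± 0.0227 and 0.822 ± 0.141 RPKM, SD, n = 4), and the log2 fold change was 1.95 (SE 0.15, interval 1.62 to 2.28, limma adjusted p = 0.00016).

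Ero1l, chr14:45283087-45318771 on the minus strand, encodes ERO1α, the widely expressed oxidase whose RNA is also known to respond to low oxygen. It was at 0.902, 0.799, 0.792 and 0.961 RPKM in control and at 0.871, 0.917, 1.04 and 0.868 RPKM in Sel1l CKO libraries, and the groups overlapped. The means were 0.863 ± 0.0821 and 0.925 ± 0.0828 RPKM (SD, n = 4). The log2 fold change was 0.10 (SE 0.10, limma adjusted p = 0.598), and its 95% interval of -0.12 to 0.32 lay wholly under the interval of Ero1lb. Ero1l held 989 to 1640 reads in a library.

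**Figure D2:**
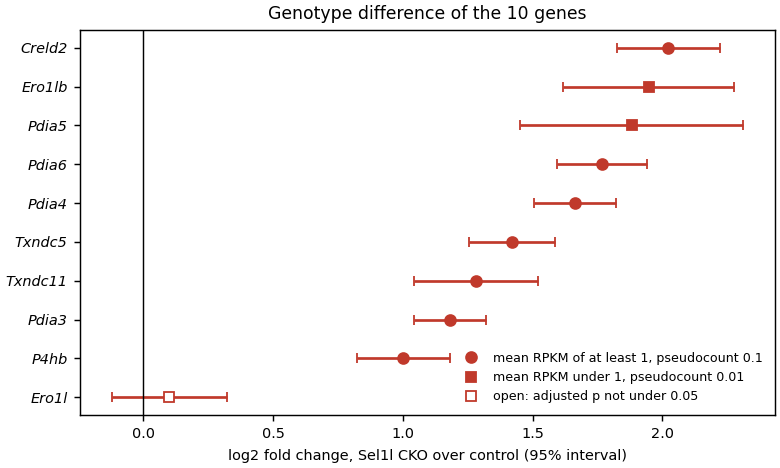
Log2 fold change of Sel1l CKO over control for each of the 10 genes, with 95% intervals from limma over 4 and 4 libraries; genes with a mean of at least 1 RPKM are on log2(RPKM + 0.1) and Pdia5, Ero1lb and Ero1l (squares) on log2(RPKM + 0.01), and the open point did not pass. The intervals run from 0.82 for P4hb to 2.31 for Pdia5 in the genes that rose, and that of Ero1l, -0.12 to 0.32, includes 0.

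The difference between the oxidases was tested within libraries, as the log2 ratio of Ero1lb to Ero1l. It was -1.66 ± 0.0962 in control and -0.16 ± 0.222 in Sel1l CKO libraries (SD, n = 4), 1.5 higher, with an exact two-sided permutation p of 0.0286 (adjusted over the 4 pairs compared, 0.0381). Pdia4 also rose by more than Pdia3, by 0.48 on the log2 scale of their ratio, with the same exact p and adjusted p. With a pseudocount of 0.01 or on reads per exon length these differences were 1.85 and 1.90 for Ero1lb to Ero1l and 0.49 and 0.49 for Pdia4 to Pdia3. Their exact permutation p stayed at the floor of 0.0286 there, but the adjusted p was 0.0571 because fewer of the 4 pairs were at the floor, and 3 against 4 libraries cannot reach the threshold. The log2 ratio of Pdia5 to Pdia6 differed by -0.51 with an exact adjusted p of 0.0381, but by 0.11 with a pseudocount of 0.01 and 0.23 on reads per exon length, so no order of these 2 changes is given. Txndc5 and Txndc11 did not differ past the threshold, with a difference of 0.14 in their log2 ratio and an exact permutation p of 0.114.

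To compare levels between genes, reads were divided by the length of the joined exons, which gives an exon-length RPKM. On that scale control libraries held most P4hb (150 ± 7.86) and Pdia3 (133 ± 5.71), then Pdia6 (57.4 ± 1.80), Pdia4 (47.8 ± 2.07), Creld2 (31.0 ± 2.13) and Txndc5 (16.8 ± 0.643, all SD, n = 4). Ero1l at 5.80 ± 0.551 and Txndc11 at 5.30 ± 0.304 overlapped, and Pdia5 at 2.89 ± 0.416 and Ero1lb at 1.34 ± 0.149 were lowest. The order changed in the Sel1l CKO libraries: Pdia3 at 303 ± 13.4 and P4hb at 302 ± 27.4 overlapped, Pdia5 at 11.7 ± 2.69 stood above Ero1l at 6.21 ± 0.556, and Ero1lb at 5.39 ± 0.927 reached the range of Ero1l. Pdia6 at 197 ± 18.4, Pdia4 at 153 ± 10.8, Creld2 at 128 ± 12.8 and Txndc5 at 46.3 ± 3.75 kept their places, and Txndc11 at 13.9 ± 1.98 overlapped Pdia5.

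The sum over the 10 genes was 445, 435, 458 and 468 exon-length RPKM in control and 1160, 1049, 1205 and 1251 in Sel1l CKO libraries, means of 451.5 ± 14.8 and 1166 ± 86.7 (SD, n = 4). P4hb made up 33.3 ± 1.17% of the control sum and 25.9 ± 0.513% of the Sel1l CKO sum. Pdia6 went from 12.7 ± 0.258% to 16.9 ± 0.413%, Creld2 from 6.85 ± 0.360% to 10.9 ± 0.415% and Pdia4 from 10.6 ± 0.553% to 13.1 ± 0.136%. Ero1l, the gene that did not pass the test, made up 1.28 ± 0.104% and then 0.535 ± 0.0598%. These shares are descriptions and were not tested.

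**Figure D3:**
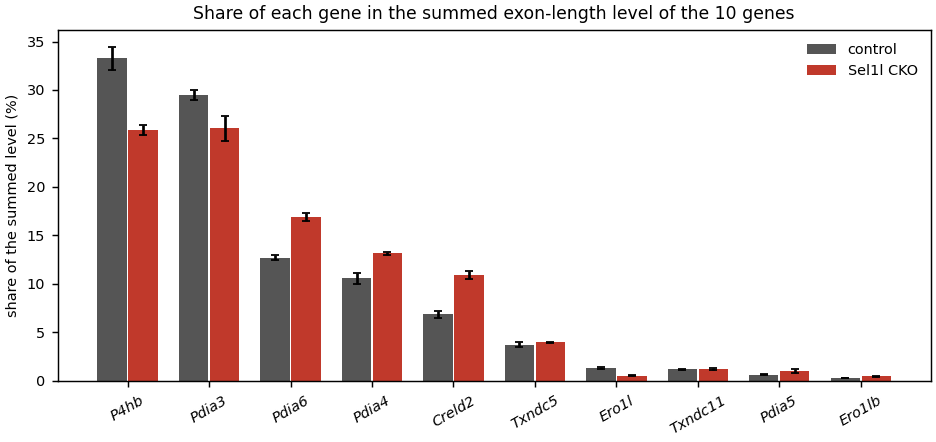
Share (percent) of each gene in the summed exon-length RPKM of the 10 genes, by genotype, with mean and SD over 4 libraries. P4hb falls from 33.3% to 25.9% of the sum and Pdia6 goes from 12.7% to 16.9%.

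The Sel1l CKO libraries differed among themselves. Coefficients of variation of the 10 genes were 3.13% to 14.4% in control and 4.41% to 23.0% in Sel1l CKO libraries. Of the 9 genes that rose, Sel1l CKO replicate 4 was highest in 9, replicate 2 lowest in 7, and replicates 3 and 4 were both above replicates 1 and 2 in 8, with Pdia3 as the exception. Sel1l itself was also higher in Sel1l CKO replicates 3 and 4 (1.32 and 1.23 RPKM) than in 1 and 2 (0.917 and 0.876 RPKM). In control libraries replicate 4 was highest in 5 of the 9, and replicates 3 and 4 were both above 1 and 2 in 4. How often these orders held over all genes was not counted. Read counts of at least 11046 genes were compared between libraries of the same genotype. In both genotypes, libraries were closest within replicates 1 and 2 and within replicates 3 and 4. Between 2 libraries, chi-square per degree of freedom was 37.0 (1 and 2), 10.4 (3 and 4) and 61.6 to 88.5 (across) in Sel1l CKO. In control libraries it was 25.05, 42.3 and 54.6 to 77.8. This is a distance within a genotype and does not say whether the same genes set the replicates apart in both. Across genotypes, deviations of genes from their group mean correlated at 0.097 to 0.292 between control and Sel1l CKO replicates 1 and 2. With Sel1l CKO replicates 3 and 4, control replicate 3 correlated at 0.445 and 0.404, and control replicate 4 at -0.083 and 0.0051. Compared within replicates 1 and 2 and within replicates 3 and 4, the log2 fold changes were 0.97 and 1.03 for P4hb, 1.20 and 1.16 for Pdia3 and, on log2(RPKM + 0.01), 1.72 and 2.18 for Ero1lb. All 9 genes were higher in Sel1l CKO in both sets, and the difference between the sets was not tested.

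Among the other genes of the disulfide machinery, Erp29, Selenof and Selenom rose. Of 23 further isomerase-family, thiol oxidase and ER peroxidase genes, 21 were in the table and 20 were tested at the lower limit: 3 rose, 0 fell and 17 did not pass, beside 2.78% that rose and 0.834% that fell of all genes tested, with a median log2 fold change of 0.12 against -0.01. With the limit of 1 RPKM, 2 of 12 rose and 0 fell, beside 4.27% and 1.01%. The count of 3 was 2, without Selenof, when control replicate 1, 2 or 4 or Sel1l CKO replicate 3 was left out (limma adjusted p of Selenof 0.053 to 0.061). Below, genes with a mean of at least 1 RPKM are given from the test at that limit and the others from the lower limit. Erp29, a PDI-like protein without an active site, went from 3.54 ± 0.209 to 4.91 ± 0.124 RPKM (SD, n = 4, log2 fold change 0.46, limma adjusted p = 0.0023, and 0.0038 at the lower limit). It overlaps Naa25 and Tmem116 in exons on the other strand, and a share of their reads in Erp29 was not tested. Selenof, an ER selenoprotein with a thioredoxin-like fold, rose by 0.37 (limma adjusted p = 0.012, and 0.018 at the lower limit), and Selenom, another, rose from 0.406 ± 0.120 to 1.22 ± 0.213 RPKM, by 1.61 (limma adjusted p = 0.0074). Prdx4, which reduces ER peroxide and passes oxidation on to isomerases, was at 0.491 ± 0.152 and 0.561 ± 0.267 RPKM (limma adjusted p = 0.886). Erp44, which holds Ero1 in the ER, had a log2 fold change of 0.41 (limma adjusted p = 0.094) with all Sel1l CKO libraries above all control libraries, and Dnajc10, the reductase ERdj5 of ER-associated degradation, 0.13 (limma adjusted p = 0.376). Tmx1, a membrane-bound isomerase, had -0.46 (limma adjusted p = 0.10) with all Sel1l CKO libraries below all control libraries. Gpx7, an ER peroxidase, had 1.72 from very low values of 0.0428 ± 0.0291 and 0.146 ± 0.0648 RPKM (limma adjusted p = 0.148), also without overlap of the groups. At the lower limit, 7.23% of all genes lay above and 6.34% below without overlap.

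Among 13 genes whose proteins bind these enzymes or share their clients, 10 were tested at the lower limit: 5 rose, 0 fell and 5 did not pass, beside 2.78% that rose and 0.834% that fell of all genes tested, with a median log2 fold change of 0.48 against -0.01. The 5 were Hspa5, encoding BiP, at 1.82 on the log2 scale, Hsp90b1, encoding GRP94, at 1.35, the lectin chaperones Calr and Canx at 1.22 and 0.73, and Edem2, a partner of Txndc11, at 1.04. The limma adjusted p was at most 0.0048 for these. Here too, genes with a mean of at least 1 RPKM are given from the test at that limit. Subunit partners of the isomerases were not among them. P4ha1, the catalytic α subunit that pairs with P4hb in collagen prolyl 4-hydroxylase, had control and Sel1l CKO means of 0.962 ± 0.282 and 0.548 ± 0.0672 RPKM (log2 fold change -0.77, limma adjusted p = 0.061). Tapbp, encoding tapasin, which holds Pdia3 in the peptide-loading complex, was at 11.8 ± 1.60 and 8.07 ± 1.90 RPKM (-0.56, limma adjusted p = 0.10), and in both genes all Sel1l CKO libraries were below all control libraries, as in 5.59% of the genes tested at the limit of 1 RPKM and 6.34% at the lower limit. Tapbp overlaps Zbtb22 in exons on the same strand, and a share of Zbtb22 reads in Tapbp was not tested. Mttp, the partner of P4hb in lipid transfer, was at 0.10 ± 0.0110 and 0.0877 ± 0.0170 RPKM (limma adjusted p = 0.606), and Clgn was listed at 0 in every library.

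Of 7 regulators of the unfolded protein response, 5 rose, 0 fell and 2 did not pass at the lower limit, beside 2.78% and 0.834% of all genes tested, with a median log2 fold change of 0.69 against -0.01. Ddit3, encoding CHOP, rose by 1.34 (2.80 ± 0.690 to 7.19 ± 1.14 RPKM, SD, n = 4, limma adjusted p = 0.0018), Atf4 by 0.90 (limma adjusted p = 0.00058) and Xbp1 by 0.69 (limma adjusted p = 0.016). Their values, and that of Atf6b below, come from the test at the limit of 1 RPKM. Atf6 rose by 0.89 from 0.136 ± 0.0115 RPKM (limma adjusted p = 0.021), and Eif2ak3, encoding the kinase PERK, by 0.63 on log2(RPKM + 0.01) (0.832 ± 0.0808 to 1.30 ± 0.205 RPKM, limma adjusted p = 0.031), since it passes the limit of 1 RPKM only through its Sel1l CKO libraries. Atf6b at 0.25 and Ern1, encoding the sensor IRE1α, at -0.11 did not pass (limma adjusted p = 0.172 and 0.58). The count of 5 was 2 without any one of control replicate 1, 3 or 4 or Sel1l CKO replicate 3 or 4.

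**Figure D4:**
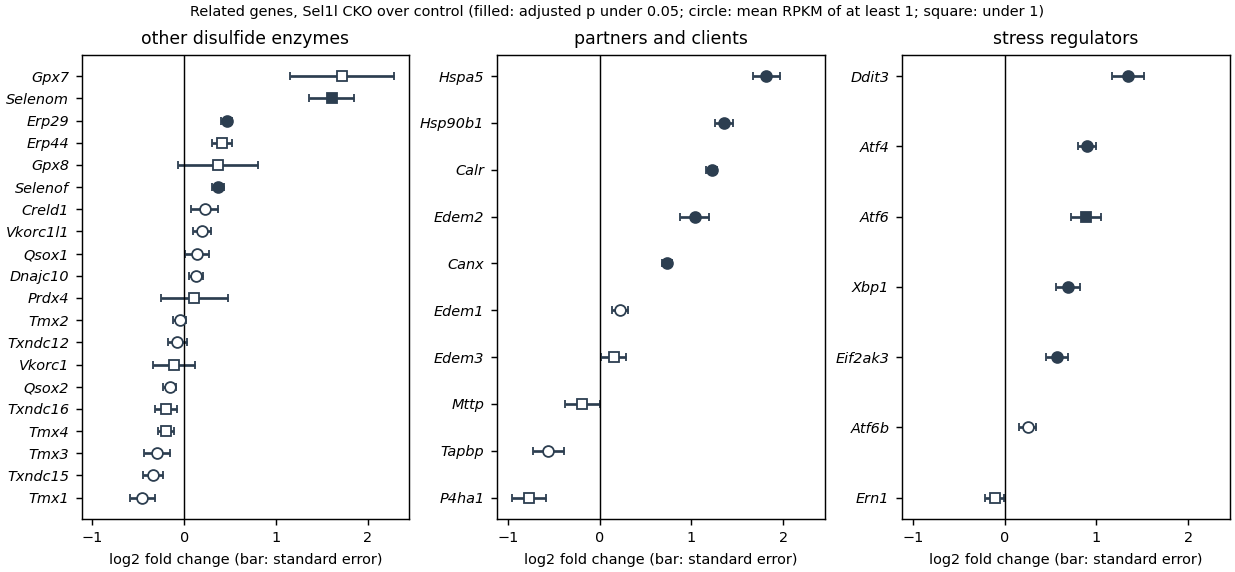
Log2 fold change of Sel1l CKO over control of the tested genes of the 3 related lists, with bars of 1 standard error from limma over 4 and 4 libraries, filled points for an adjusted p under 0.05, circles for a mean of at least 1 RPKM (pseudocount 0.1) and squares for a lower mean (pseudocount 0.01). Eif2ak3 reached 1 RPKM only through its Sel1l CKO libraries. Erp27, P4ha2, P4ha3 and Clgn are not shown because they were under the limit of 0.05 RPKM, and Hspa5 at 1.82 is the highest of the genes that passed.

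Among the 6481 tested genes outside these lists, the profile over the 8 libraries most like the median of the 7 members with a mean of at least 1 RPKM was that of Sec61g, a subunit of the ER translocon. Its root mean square distance was 0.0908 on the log2 scale and its log2 fold change was 1.45. Armcx2 (distance 0.138), the proton channel gene Hvcn1 (0.138), Serp1, encoding a protein associated with the translocon (0.144), and Slc35b1, an ER membrane nucleotide transporter (0.153), followed. Hvcn1, with a control mean of 0.744 RPKM, passed the limit of 1 RPKM only through its Sel1l CKO libraries (mean 2.16). Txndc11, 1 of the 7 members behind the median profile, passed that limit in the same way. Genes were ranked by closeness to the members' values relative to control, so log2 fold changes near theirs follow from the choice. The members' own distances from their median ran from 0.0425 for Txndc5 to 0.430 for Creld2.

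The start-site sequences of the 10 genes were searched in RefSeq windows of 300 bases (250 before to 50 after each start, GRCm38.p6, 13 windows for the 10 genes) for motifs through which the unfolded protein response is known to act. The ER stress response element (ERSE), CCAAT and CCACG separated by 9 bases on either strand, was in the windows of Pdia6, Creld2 and Ero1lb and in 39 of 32851 windows in all (0.119%). In the Pdia6 window it lies 98 to 80 bases before the start on the strand of the gene, in Creld2 126 to 108 and in Ero1lb 201 to 183 bases before the start on the opposite strand, where the capitals read as the reverse complement. The window of Ero1l, the gene whose RNA overlapped between genotypes, held none of the motifs. Neither did the windows of P4hb, Pdia3, Pdia4 and Pdia5, whose RNA rose. Of these only that of Ero1l is shown, and capitals mark the match. Whether a motif goes with the response was not tested. All windows are printed 5′ to 3′ in the direction of the gene.

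Pdia6, chr12:17266339-17266638, plus strand: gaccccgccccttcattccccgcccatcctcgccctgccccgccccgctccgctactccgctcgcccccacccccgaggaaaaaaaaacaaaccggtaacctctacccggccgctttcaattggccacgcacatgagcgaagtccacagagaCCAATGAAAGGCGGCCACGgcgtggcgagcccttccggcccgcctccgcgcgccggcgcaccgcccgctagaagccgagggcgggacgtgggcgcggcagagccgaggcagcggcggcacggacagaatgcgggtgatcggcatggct
Creld2, chr15:88819396-88819695, plus strand: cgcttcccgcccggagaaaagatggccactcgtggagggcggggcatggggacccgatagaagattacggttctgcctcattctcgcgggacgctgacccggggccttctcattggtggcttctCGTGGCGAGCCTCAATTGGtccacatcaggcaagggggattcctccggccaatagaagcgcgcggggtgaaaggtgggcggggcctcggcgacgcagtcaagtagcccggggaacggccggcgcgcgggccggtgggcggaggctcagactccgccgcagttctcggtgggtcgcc
Ero1lb, chr13:12565633-12565932, plus strand: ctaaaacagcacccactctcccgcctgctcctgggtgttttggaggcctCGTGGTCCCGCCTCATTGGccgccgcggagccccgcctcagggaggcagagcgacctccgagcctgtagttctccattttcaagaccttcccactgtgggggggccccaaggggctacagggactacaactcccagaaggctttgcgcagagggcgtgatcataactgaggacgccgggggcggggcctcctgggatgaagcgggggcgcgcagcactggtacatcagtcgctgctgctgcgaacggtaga
Ero1l, chr14:45318523-45318822, minus strand: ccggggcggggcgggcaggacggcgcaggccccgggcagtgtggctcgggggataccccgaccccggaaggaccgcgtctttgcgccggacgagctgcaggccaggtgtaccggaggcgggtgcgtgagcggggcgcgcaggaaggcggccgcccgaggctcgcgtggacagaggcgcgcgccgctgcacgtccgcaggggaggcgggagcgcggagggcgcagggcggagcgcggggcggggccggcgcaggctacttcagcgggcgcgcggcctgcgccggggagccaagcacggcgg

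The core of the unfolded protein response element (UPRE), TGACGTGG, was in the windows of Txndc11, 102 to 95 bases before the start, and of 1 of the Txndc5 start sites, 138 to 131 bases before it, and in 222 windows in all (0.676%). Both are shown because neither holds an ERSE, with the core in capitals.

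Txndc11, chr16:11134483-11134782, minus strand: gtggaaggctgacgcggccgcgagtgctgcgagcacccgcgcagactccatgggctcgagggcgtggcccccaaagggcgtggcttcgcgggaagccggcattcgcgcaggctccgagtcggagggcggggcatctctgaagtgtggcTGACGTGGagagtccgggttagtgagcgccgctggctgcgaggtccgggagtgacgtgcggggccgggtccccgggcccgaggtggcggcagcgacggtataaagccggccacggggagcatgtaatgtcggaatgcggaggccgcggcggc
Txndc5, chr13:38527865-38528164, minus strand: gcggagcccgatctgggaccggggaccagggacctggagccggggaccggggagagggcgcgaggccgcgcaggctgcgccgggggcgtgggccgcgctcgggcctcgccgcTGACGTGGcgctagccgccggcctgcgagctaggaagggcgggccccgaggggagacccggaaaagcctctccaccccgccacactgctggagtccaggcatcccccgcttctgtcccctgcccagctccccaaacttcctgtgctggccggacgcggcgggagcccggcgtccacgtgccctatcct

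A further Txndc5 start site had the amino acid response core TGATGNAA, 105 to 98 bases before it on the opposite strand, which 1304 windows held (3.97%). ERSE-II, ATTGG and CCACG separated by 1 base, was in 12 windows (0.0365%) and in 0 of the members. P4hb, Pdia3, Pdia4 and Pdia5 had none of these letters in their windows, although all 4 rose. The RefSeq window of Pdia4, chr6:47813463-47813762, lies wholly before the GENCODE start of the gene at 47813430. The bases around that start were not searched. Of the 208 genes that rose with a mean of at least 1 RPKM and have a window, 10 held an ERSE (4.81%), against 12 of all 5210 tested genes with a window (0.230%), and Hspa5, Calr, Hsp90b1 and Canx were among the genes with one. For the UPRE core these were 11 (5.29%) against 58 (1.11%), and for ERSE-II 4 (1.92%) against 6 (0.115%). For the amino acid response core they were 13 (6.25%) against 124 (2.38%). Of the 51 genes that fell and have a window, 2 held that core and 0 another motif. The 208 genes are part of the 5210 and include the members Pdia6, Creld2, Txndc5 and Txndc11 with the matches given above. The limit of 1 RPKM also let genes such as Txndc11 in only through their Sel1l CKO libraries. The contrasts of these shares are therefore descriptions and were not tested. A match is a description of letters and not of binding.

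**Figure D5:**
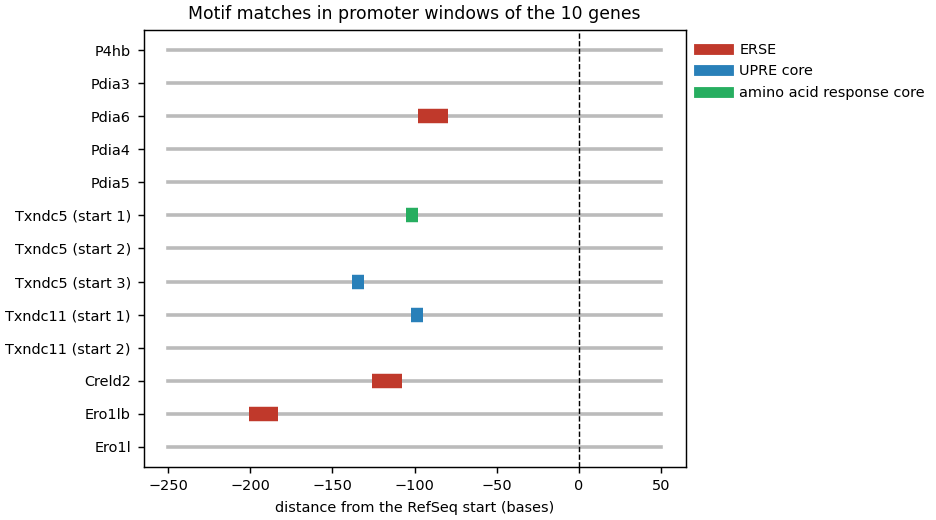
Positions of motif matches relative to each start site (bases, 250 before to 50 after) in the 13 windows of the 10 genes, with 1 line per window and colors for the motifs. ERSE matches lie in the windows of Pdia6, Creld2 and Ero1lb, and the windows of P4hb, Pdia3, Pdia4, Pdia5 and Ero1l are empty.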

How the data were processed

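DN3 thymocytes were sorted into TRIzol LS and their mRNA was made into stranded libraries for paired-end sequencing. Alignment was by STAR 2.5.2b to GRCm38 and counting by HTSeq 2.7 (versions from the submitters' processing notes), and the authors deposited RPKM values, 1 column for each of the 8 libraries. Their own test was a count model. The authors' RPKM used the gene span with introns: with the spans of GENCODE M21, 75.3% of genes gave whole reads within 0.02, against 3.24% with exon lengths. Reads were recovered for 14890 genes, 3113 of them with a length solved within 10% of the span, among them Pdia4, Ero1l, Ero1lb, Txndc5 and Creld2. The 682 genes at 0 in all libraries were left out.

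The tests used limma 3.58.1 under R 4.3.3 (mean-variance trend, Benjamini-Hochberg over all genes tested, two-sided), and the scripts were tested on simulated data. The limits were a mean of at least 1 RPKM with a pseudocount of 0.1, and a mean of at least 0.05 RPKM with a pseudocount of 0.01. A fold change on log2(RPKM + pseudocount) understates the change of low genes. Pairs of genes, 4 in all, were compared by exact permutation (Python 3.11.15, scipy 1.17.1). Counting error alone is small for all 10 genes at this depth. Genes named are the 10 members, Sel1l, the genes of 3 lists, the marker lists and the 5 nearest profiles. Genes overlapping a member are named after their values were seen, and Zbtb22, Naa25 and Tmem116 for their overlap with listed genes. The members and lists were chosen with earlier results of these data known. Same-numbered libraries of the 2 genotypes did not deviate together in every pair (correlations 0.16, 0.097, 0.44 and 0.0051), so the numbers were not used as pairs. Alternatives were other pseudocounts, limits, scalings, weights, a block, a term for replicates 1 and 2 against 3 and 4, voom on recovered reads, and leaving out each library.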

Additional observations from a re-analysis of the deposited data

Results flagged for a closer look

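In 109 groups of 4 libraries, 9 had 1 library apart from the other 3 by Dixon's 95% criterion, where chance gives about 5.5. Among the 10 genes this was Pdia6 alone, at 12.3 RPKM in control replicate 4 against 11.6 in each of the others, a gap far smaller than the difference between genotypes. Among related genes, control replicate 3 was apart for Tmx1 (4.87 RPKM, others 3.57 to 3.65), Qsox2 (2.95 RPKM, others 3.35 to 3.43) and P4ha1 (1.38 RPKM, others 0.765 to 0.862). Sel1l CKO replicate 3 was apart for Erp27 (0.121 RPKM, others 0.0124 to 0.0280) and Edem3 (0.532 RPKM, others 0.444 to 0.450), and Sel1l CKO replicate 4 for P4ha3 (0.00178 RPKM, others listed at 0). Control replicate 2 was apart in the log2 ratio of Ero1lb to Ero1l (-1.52, others -1.73 to -1.70) and in that of Txndc5 to Txndc11 (1.80, others 1.57 to 1.61).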

How the results depend on the processing

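For the 9 genes that rose, all 178 values over 20 alternatives kept direction and call; the lowest log2 fold changes came from Pdia5 (0.31) and Ero1lb (0.59) with a pseudocount of 1. Ero1l stayed between 0.04 and 0.15 (limma adjusted p 0.475 to 0.835). Sel1l lost its call without a filter (-0.59), with libraries set to the same sum of RPKM (-0.60) and with a replicate block (-0.59, limma adjusted p = 0.060), and lay at -0.69 to -0.51 with 1 library left out. The block changed no call among the 10 genes and moved the calls over all genes from 344 to 317 at the limit of 1 RPKM and from 390 to 263 at the lower limit. Array weights gave 640 and 677 calls, the term for replicates 1 and 2 against 3 and 4 gave 525 and 585, voom 465, and leaving out 1 library 244 to 314 and 229 to 346.

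At the limit of 1 RPKM, raising it to 5 left 1 disulfide gene and 2 regulators higher, and array weights put 2 disulfide genes lower. Leaving out 1 library gave 0 to 2 lower disulfide genes (2 without Sel1l CKO replicate 1, Tmx1 and Txndc15), and the replicate term and voom each put 1 client-binding gene lower (Tapbp and P4ha1). At the lower limit, the disulfide genes that rose numbered 2 to 4 over all settings (2 with the replicate block, Selenof then not passing), array weights put 2 disulfide genes lower and leaving out 1 library 0 to 1, P4ha1 was lower (1 gene) with the same sum, array weights, the replicate term and voom, and the regulators that rose numbered 3 without a filter, 2 with the replicate block and 2 to 5 with 1 library left out.

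The log2 ratio of Ero1lb to Ero1l differed by 1.85 with a pseudocount of 0.01, 1.90 on reads per exon length, 1.5 with same-numbered libraries as a block (exact adjusted p = 0.167; 4 pairs of libraries cannot reach the threshold) and 1.40 to 1.57 with 1 library left out. That of Pdia4 to Pdia3 was 0.49, 0.49, 0.48 and 0.44 to 0.51. That of Pdia5 to Pdia6 was 0.11, 0.23, -0.51 and -0.56 to -0.45, and it changed sign because the pseudocount of 0.1 is near the level of Pdia5. On RPKM as deposited, P4hb made up 42.0% of the control sum and 32.9% of the Sel1l CKO sum. Depth limits the genes under 0.05 RPKM, which were not tested; other causes were not tested.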
